A study of Mus musculus with 6 samples.

Results

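A set of 9 signaling genes of blood-derived cells are described here in the infarcted mouse heart: the kinases Syk, Btk and Lyn, the phosphatases Ptprc (CD45), Ptpn6 and Inpp5d, and Lcp2, Vav1 and Plcg2. The last of these are an adaptor, a guanine nucleotide exchange factor and a phospholipase, so the name signaling kinases and phosphatases covers 6 of the 9. They were listed by name as the signaling set of leukocytes, and all 9 were found among the 36047 genes that could be formed from the deposited transcripts. Tissue of the infarct area was sequenced from 3 mice given LGK-974 and 3 given DMSO, 2 days (48 h) after ischemia/reperfusion. All were female C57BL/6 mice, 12 weeks old by the labels, whose left anterior descending artery was tied off and released again. LGK-974, which blocks Porcupine and with it the release of Wnt proteins, was given by daily oral gavage, and the DMSO mice received the solvent in the same buffer. No uninjured heart was compared here. The drug was given to the whole animal, so cells outside the heart were exposed to it as well.

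These proteins form one relay. Receptors of macrophages, neutrophils, mast cells and lymphocytes carry tyrosine motifs, called ITAMs, that Src-family kinases such as Lyn phosphorylate. Syk docks there and phosphorylates the adaptor Lcp2 (SLP-76), on which Vav1 and Plcg2 assemble, and Btk helps to activate Plcg2. CD45 keeps Src-family kinases ready by removing an inhibitory phosphate, while Ptpn6 (SHP-1) and Inpp5d (SHIP-1) are drawn to inhibitory motifs, called ITIMs, and damp the signal. In the reperfused heart such cells enter the injured wall within days.

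Stretches by which transcripts of Ptprc and Ptpn6 differ are shown. Ptprc-203 held the most counts of the coding transcripts of Ptprc. Ptprc-207 was taken for its longest coding stretch and is not a main transcript, with 0 to 336 counts per library. The stretches are in lower case, 5′ to 3′ on the gene's strand, read from the GRCm38 genome with the GENCODE M21 annotation. Ptprc-207 holds 3 coding exons (minus strand) that Ptprc-203 lacks, at chr1:138122456-138122584, chr1:138120020-138120166 and chr1:138117754-138117894. These are the alternative exons by which the long and short forms of CD45 are told apart, and the encoded proteins have 1293 and 1154 residues.
Ptprc-207 exon 4: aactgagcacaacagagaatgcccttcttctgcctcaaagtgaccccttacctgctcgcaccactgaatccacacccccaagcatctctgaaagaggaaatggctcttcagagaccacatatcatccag
Ptprc-207 exon 5: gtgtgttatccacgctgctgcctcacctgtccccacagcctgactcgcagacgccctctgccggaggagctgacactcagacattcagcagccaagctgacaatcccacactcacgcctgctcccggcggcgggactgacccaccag
Ptprc-207 exon 6: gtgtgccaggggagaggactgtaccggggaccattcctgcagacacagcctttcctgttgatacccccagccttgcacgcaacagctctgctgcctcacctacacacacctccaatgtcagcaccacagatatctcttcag
Ptpn6-202 and Ptpn6-201 begin in different first exons (minus strand), so their first coding bases differ. These spliced stretches span chr6:124732809-124732953 and chr6:124732815-124738512, and capitals mark the bases they do not share.
Ptpn6-202 coding start: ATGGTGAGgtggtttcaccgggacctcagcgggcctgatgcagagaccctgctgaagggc
Ptpn6-201 coding start: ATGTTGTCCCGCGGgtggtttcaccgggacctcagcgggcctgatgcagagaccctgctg
Ptpn6-204, a transcript annotated as retained intron, holds 44 bases (chr6:124728665-124728708, minus strand) found in no other Ptpn6 transcript.
Ptpn6-204 retained stretch: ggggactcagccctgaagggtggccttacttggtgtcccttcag

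The libraries held between 41579787 and 80398211 estimated counts, and mitochondrial genes held 28.2% to 53.7% of these counts in the LGK-974 libraries and 39.3% to 42.8% in the DMSO libraries. DMSO replicate 1 stood apart. In it the 1501 genes for olfactory, vomeronasal and taste receptors, which mainly sensory cells use, summed to 19927 CPM (CPM, counts relative to library size). The other 5 libraries held 2944 to 6982. These receptor sums were scaled by library size alone, while the CPM values below also use edgeR's TMM factors. The fit had a common dispersion of 0.238 with all libraries and 0.0825 without DMSO replicate 1. Results are therefore also given without it, and its part in them was not tested. Cardiomyocyte markers marked the tissue as heart in every library, with a summed level of 20578 to 29977 CPM under LGK-974 and 26517 to 35789 under DMSO.

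For all 9 genes the fitted log2 fold change (LGK-974 over DMSO) was positive, and for none did it pass an adjusted p of 0.05 in edgeR's quasi-likelihood test (limma-voom also called 0, DESeq2 1). The fold changes ran from 0.34 for Btk to 1.10 for Ptpn6, and the adjusted p from 0.368 to 0.596. At an unadjusted p under 0.05, 7 of the 9 were higher under LGK-974, all but Syk and Btk, where 6.26% of the 20094 genes tested were higher and 7.18% lower. The 7 genes other than Btk and Lcp2 had all LGK-974 libraries above all DMSO libraries, which held for 10.7% of all genes tested (7.27% in the opposite direction). A log2 fold change above 0 was found for 40.5% of all genes. The median over the 9 was 0.66, against −0.13 over all genes, and without DMSO replicate 1 these medians were 0.70 and −0.02. Scaled by library size alone, with all-gene median 0.08, 3 of the 9 kept their groups apart. The share of all genes apart under that scaling was not computed. The unadjusted count was 5 without LGK-974 replicate 3 and 6 without LGK-974 replicate 1, fits for which the share of all genes was not computed. The replicates are labelled as separate samples and taken from separate mice.

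**Figure D1:**
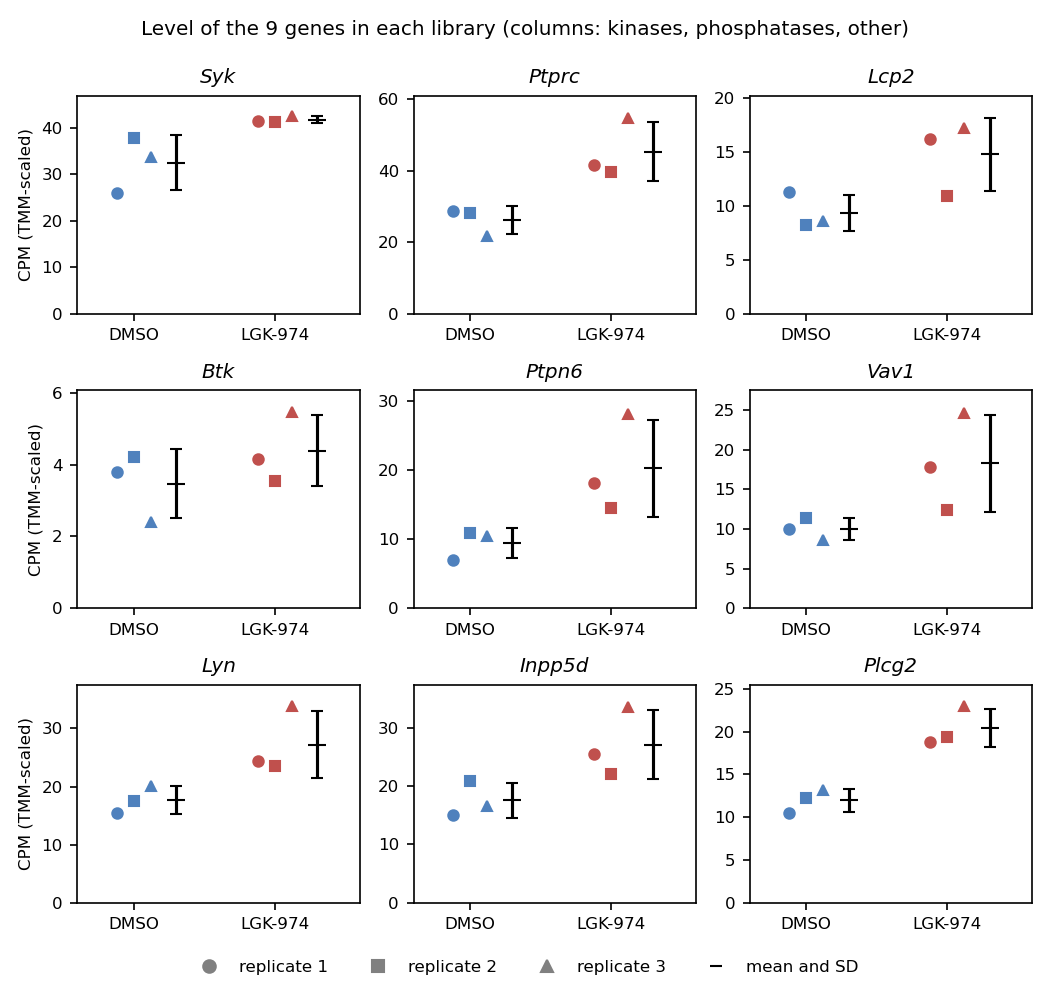
TMM-scaled CPM of the 9 genes in each library, with the kinases in the left column, the phosphatases in the middle and Lcp2, Vav1 and Plcg2 on the right. Points are libraries and bars the mean and SD of 3 mice. The groups overlap only for Btk and Lcp2, and LGK-974 replicate 3 is the highest library in every panel.

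Among the kinases, Syk (chr13:52583173-52648792, plus strand) was measured at 41.4, 41.2 and 42.5 CPM in LGK-974 replicates 1, 2 and 3 and at 26.0, 37.8 and 33.6 in DMSO replicates 1, 2 and 3. The LGK-974 libraries were close together, with an SD of 0.743 CPM (n = 3), and lay just above DMSO replicate 2, while DMSO replicate 1 was the lowest. The log2 fold change was 0.36 (SE 0.171, adjusted p = 0.371, edgeR), and 0.24 without DMSO replicate 1.

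Lyn (chr4:3678115-3813122, plus strand) was at 24.3, 23.5 and 33.8 CPM under LGK-974 and at 15.4, 17.6 and 20.1 under DMSO. The groups did not overlap, and LGK-974 replicate 3 was well above the rest. Its log2 fold change was 0.62 (SE 0.194, adjusted p = 0.368, edgeR). Of its exon bases, 248 are shared with Gm26857 on the other strand, which was not among the genes formed from the deposited transcripts.

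Btk (chrX:134542336-134583570, minus strand), known above all from B cells but also used by myeloid cells, was the lowest of the 9. Its level was 4.16, 3.55 and 5.46 CPM under LGK-974 and 3.80, 4.22 and 2.41 under DMSO. The groups overlapped, with a log2 fold change of 0.34 (SE 0.318, adjusted p = 0.596, edgeR). Its sign turned with counts scaled from the deposited TPM, to −0.32, the only such turn among the 9 genes.

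Log2 fold changes of the phosphatases ran from 0.63 to 1.10, those of the kinases from 0.34 to 0.62. CD45, the surface phosphatase that marks nucleated blood cells, is encoded by Ptprc (chr1:138062861-138175708, minus strand). It was at 41.7, 39.5 and 54.8 CPM under LGK-974 and at 28.8, 28.2 and 21.8 under DMSO. A gap of 10.7 CPM lay between the groups, the widest of the 9 genes. The log2 fold change was 0.79 (SE 0.190, adjusted p = 0.368, edgeR), a fold of 1.73. DESeq2 gave Ptprc an adjusted p of 0.0336, and it was the only gene of the 9 that DESeq2 called, where DESeq2 called 0.853% of all genes higher. Ptprc, Ptpn6 and Vav1 were called by edgeR with no filter on low counts (0.89% of all genes called higher). Ptprc, Ptpn6 and Plcg2 were called by DESeq2 on the filtered genes (1.97%), and Ptprc and Plcg2 by DESeq2 without DMSO replicate 1 (1.94%), both chosen after seeing the data.

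Ptpn6 (chr6:124720707-124738714, minus strand) had the largest change of the 9. Its level was 18.1, 14.6 and 28.2 CPM under LGK-974 and 6.99, 10.9 and 10.5 under DMSO. LGK-974 replicate 3 was the highest and DMSO replicate 1 the lowest, with 3.67 CPM between the groups. The log2 fold change was 1.10 (SE 0.288, adjusted p = 0.368, edgeR), a fold of 2.15. It ranged from 0.86 to 1.34 as each library was left out. Ptpn6 shares 195 exon bases with the antisense gene Gm20531, which was not among the genes formed from the deposited transcripts. The counting is not stated to use strand, so reads from bases that genes share on opposite strands cannot be told apart. Reads of Gm20531 from these bases could thus be counted for Ptpn6.

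Inpp5d (chr1:87620312-87720507, plus strand), which removes a phosphate from an inositol lipid that recruits Btk and other kinases, was at 25.4, 22.1 and 33.6 CPM under LGK-974. Under DMSO it was at 15.1, 20.9 and 16.5. Only 1.20 CPM separated the lowest LGK-974 library from the highest DMSO library. The log2 fold change was 0.63 (SE 0.208, adjusted p = 0.368, edgeR), and 0.21 with counts scaled from TPM.

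Of the proteins that these enzymes act on, Plcg2 (chr8:117498291-117635142, plus strand) varied least between mice. This phospholipase, which raises calcium below immune receptors, was at 18.8, 19.4 and 23.0 CPM under LGK-974 and at 10.5, 12.2 and 13.1 under DMSO. The groups were apart by 5.71 CPM. Its log2 fold change was 0.77 (SE 0.164, unadjusted p = 0.00171 and adjusted p = 0.368, edgeR), with the smallest unadjusted p of the 9.

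Vav1 (chr17:57279100-57328031, plus strand), the exchange factor, was at 17.7, 12.4 and 24.6 CPM under LGK-974 and at 10.03, 11.4 and 8.60 under DMSO. LGK-974 replicate 2 lay 0.993 CPM above DMSO replicate 2. The log2 fold change was 0.87 (SE 0.263, adjusted p = 0.368, edgeR).

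Lcp2 (chr11:34046920-34092295, plus strand) was at 16.2, 10.9 and 17.2 CPM under LGK-974 and at 11.3, 8.19 and 8.57 under DMSO. The groups overlapped, since LGK-974 replicate 2 fell below DMSO replicate 1. The log2 fold change was 0.66 (SE 0.231, adjusted p = 0.368, edgeR), and of its exon bases 282 are shared with 4930469K13Rik on the other strand, which held 16 to 61 counts.

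Between genes, levels were compared as CPM per kilobase of the longest coding transcript. Under DMSO the order was Syk (6.06), Ptprc (5.18), Lyn (5.11), Ptpn6 (4.09), Inpp5d (3.55), Vav1 (3.38), Plcg2 (2.79), Lcp2 (2.56) and Btk (1.37 CPM per kilobase). Neighbours in this order mostly did not differ beyond their spread. Only Lyn over Ptpn6 and Lcp2 over Btk held in each of the 3 DMSO libraries. Under LGK-974 the leading 4 were Ptprc (8.94), Ptpn6 (8.79), Lyn (7.86) and Syk (7.77 CPM per kilobase), and Syk was below Ptprc in all 3 libraries. Btk was last in both groups. These levels took in all transcripts of a gene. Under DMSO, retained-intron transcripts held 54.6% to 72.1% of the counts of Ptprc and 49.4% to 63.2% of those of Btk. An order from coding transcripts alone was not computed, so the place of Ptprc holds only for all its transcripts together. The order also depended on the length used. By mean deposited TPM, that under DMSO began with Ptpn6 (11.95, SD 7.70), Ptprc (8.60), Inpp5d (8.46) and Syk (7.02).

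The balance of kinases and phosphatases was compared within each library, as the log2 ratio of the summed CPM of Syk, Btk and Lyn to that of Ptprc, Ptpn6 and Inpp5d. It was −0.29, −0.16 and −0.51 under LGK-974 and −0.17, −0.01 and 0.20 under DMSO. The groups overlapped, since LGK-974 replicate 2 lay above DMSO replicate 1. The difference of −0.33 had a two-sided p of 0.2 in an exact permutation test, whose smallest possible p with 3 against 3 is 0.1.

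In bulk tissue, a change in the number of cells of a type and a change in RNA per cell cannot be told apart. The 10 pan-leukocyte markers, which hold none of the 9 genes, summed to 232 to 327 CPM under LGK-974 and 148 to 181 under DMSO. All 9 of them that could be tested had positive log2 fold changes, 8 at an unadjusted p under 0.05 in edgeR, among them Cd53 (1.07), a leukocyte tetraspanin, and Arhgdib (0.86), each with an adjusted p of 0.368. The 16 monocyte and macrophage markers summed to 691 to 843 CPM against 322 to 480, all 16 with positive log2 fold changes. None of the markers was at 0 in all libraries. The sums of other blood cell lists overlapped between the groups. They were 35.6 to 52.6 CPM under LGK-974 and 45.7 to 90.6 under DMSO for neutrophils, 28.3 to 35.6 and 31.5 to 66.7 for T cells, and 62.3 to 71.9 and 56.2 to 73.6 for B cells. NK cell markers summed to 3.08 to 4.06 and 2.06 to 13.4 CPM, mast cell markers to 2.98 to 5.49 and 3.54 to 11.1, and platelet markers to 41.4 to 47.0 and 23.7 to 42.5. The highest neutrophil, T cell, B cell, NK cell and mast cell sums were all in DMSO replicate 1. Outside the leukocytes, fibroblast markers summed to 3506 to 6038 CPM under LGK-974 and 1728 to 2564 under DMSO, and endothelial markers to 441 to 490 and 372 to 556. The fibroblast markers did not move alike, which was seen after the sums. Col1a1, Col1a2, Col3a1 and Postn had log2 fold changes of 1.07 to 1.56, and the other fibroblast markers ran from −0.21 (Fap) to 0.59 (Tcf21). The part of these cell types in the results for the 9 genes was not tested.

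Each of the 9 genes was then set against the pan-leukocyte sum of its own library, and no gene had its groups apart on this scale. Lcp1 weighed most in that sum, at 114 to 149 CPM under LGK-974 and 72.2 to 114 under DMSO. It had the smallest log2 fold change of the list, 0.54. The differences of the mean log2 ratio, LGK-974 minus DMSO, were −0.35 for Syk, −0.37 for Btk and −0.11 for Lyn. Among the phosphatases they were 0.06 for Ptprc, 0.35 for Ptpn6 and −0.11 for Inpp5d, and among the rest −0.07 for Lcp2, 0.10 for Vav1 and 0.05 for Plcg2. The two-sided p in exact permutation tests ranged from 0.2 to 0.8, and over the 9 genes the Benjamini-Hochberg adjusted value was 0.8 for each.

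**Figure D2:**
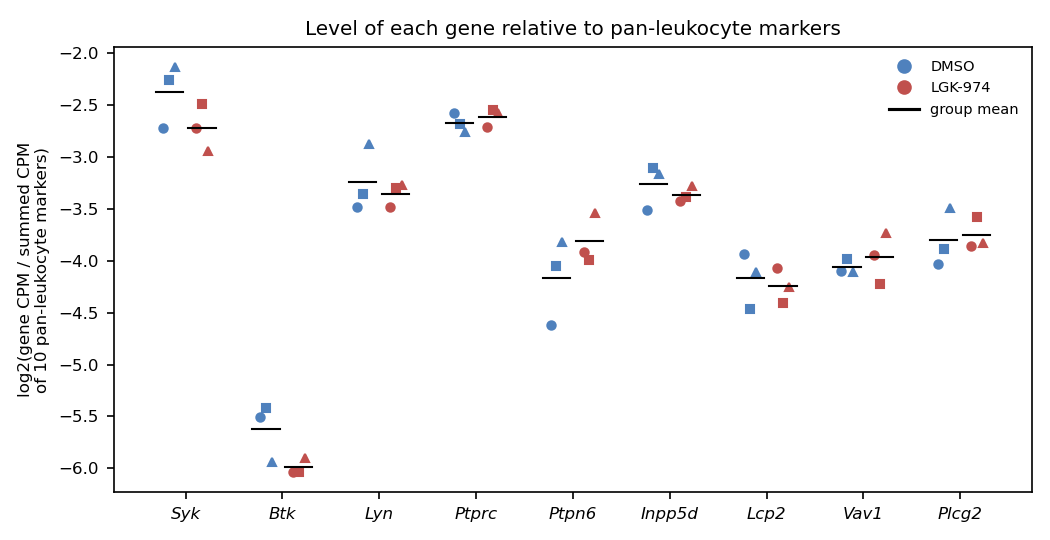
Log2 of each gene's CPM over the summed CPM of 10 pan-leukocyte markers, by library, with horizontal bars at the group means and marker shapes for replicates 1, 2 and 3 (circle, square, triangle). The groups overlap for all 9 genes, and Btk sits lowest at about 5.62 to 5.99 log2 units below the markers in the group means.

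Of the other genes of this relay, 97 were listed by role, of which 96 were tested. In the edgeR fit 71 had positive and 25 negative log2 fold changes, with a median of 0.31. Over all genes tested, 40.5% were positive and the median was −0.13. None passed an adjusted p of 0.05, 34 were higher and 2 lower at an unadjusted p under 0.05, and 35 had all LGK-974 libraries above all DMSO libraries. The shares of all genes tested were 6.26% higher, 7.18% lower and 10.7% with all LGK-974 libraries above. These shares also stand beside the counts of each list below. DESeq2 called 7 of them higher, namely Lilrb4a, Pilra, Sirpa, Fyb, Pik3ap1, Nckap1l and Ptprj, and 0 lower, where it called 0.853% of all genes higher.

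Of 16 receptors with ITAM or ITIM motifs, 8 had a positive fold change, 7 of these at an unadjusted p under 0.05. This count depended on DMSO replicate 1, since without that library 13 of the 16 were positive and their median log2 fold change went from 0.00 to 0.49. The inhibitory receptor Lilrb4a was at 140.3, 108 and 132 CPM under LGK-974 and at 52.4, 57.4 and 51.8 under DMSO. Its groups stood far apart, with a log2 fold change of 1.23 (SE 0.167, adjusted p = 0.368, edgeR, and 4.52e-07 by DESeq2). Pilra and Pirb, inhibitory receptors of myeloid cells, had log2 fold changes of 1.25 and 0.75.

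Of 22 further kinases, 15 had positive log2 fold changes, 8 of them at an unadjusted p under 0.05, with a median of 0.45. Prkcd, a protein kinase C, had a log2 fold change of 0.62, and Fes, a myeloid tyrosine kinase, of 0.66. Bmx, a relative of Btk used by endothelial cells, and Prkcq, the protein kinase C of T cells and muscle, were the 2 at an unadjusted p under 0.05 in the lower direction, and were named after their values were seen. Prkcq was at 9.88, 9.20 and 8.16 CPM under LGK-974 and at 39.2, 12.3 and 9.85 under DMSO. Its fold change rested on DMSO replicate 1, being −1.17 with that library and −0.26 without it.

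Of 15 further phosphatases, 10 had positive log2 fold changes and 4 an unadjusted p under 0.05, with a median of 0.10 (0.15 without DMSO replicate 1). These included Ptprj, a receptor phosphatase of blood and endothelial cells, at 0.77, Ptpre at 0.75 and Ubash3b, which damps Syk, at 0.92. Ptpn11, the relative of Ptpn6 that most cell types use, went the other way, and was named after its values were seen. It was at 80.5, 89.5 and 78.2 CPM under LGK-974 and at 92.5, 108 and 111 under DMSO, with all LGK-974 libraries lower and a log2 fold change of −0.33 (SE 0.158, adjusted p = 0.372, edgeR).

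Of 25 adaptors tested, 22 had positive log2 fold changes and 10 an unadjusted p under 0.05, with a median of 0.47. Among them were Fyb, a partner of Lcp2, at 0.87, its partner Skap2 at 0.70, and Pik3ap1, which links receptors to PI3-kinase, at 1.07. Of 18 exchange factors and effectors, 16 had positive log2 fold changes and 5 an unadjusted p under 0.05, with a median of 0.29. Nckap1l, the blood-cell subunit of the WAVE complex, was at 0.92, the Rac activator Dock2 at 0.79, and Vav3, the relative of Vav1, at 0.59. All of the pathway genes named with a log2 fold change had an adjusted p of 0.368 or above in edgeR.

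**Figure D3:**
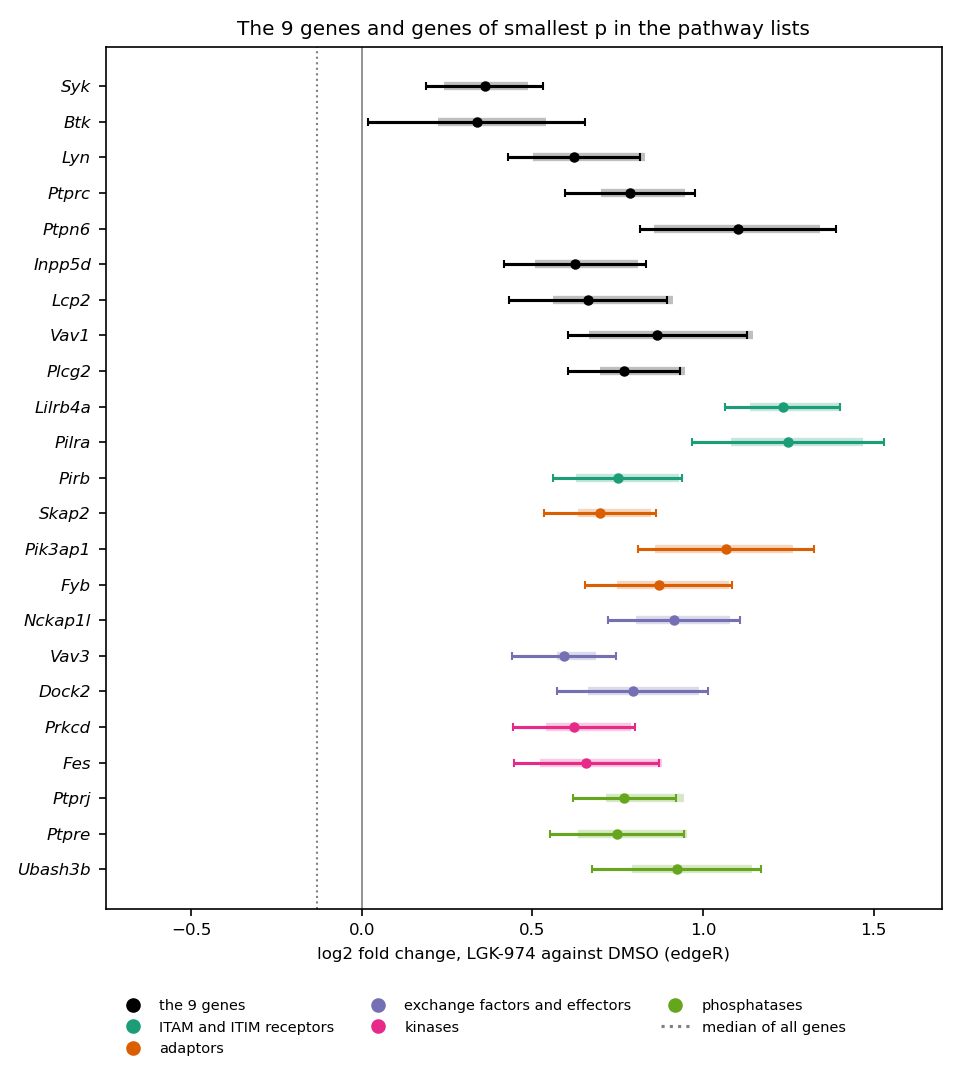
Log2 fold changes (LGK-974 over DMSO, edgeR) of the 9 genes and of 14 genes that are among the 3 with the smallest unadjusted p in their pathway list. Points are estimates, thin bars their SE, thick pale bars the range as each library was left out, and the dotted line the median of all genes (−0.13). All shown lie above 0, which for the coloured genes follows in part from how they were picked.

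The 9 genes have 59 transcripts in the files, of which 39 had enough counts to be tested and 4 were at 0 in every library. At an unadjusted p under 0.05, 8 of the 39 were higher under LGK-974 and 0 lower, where 3.22% of all transcripts tested were higher. In 12 of the 39, all LGK-974 libraries lay above all DMSO libraries, against 8.51% of all transcripts tested. The median log2 fold change was 0.68 over the 39 and −0.04 over all transcripts. None passed an adjusted p of 0.05 in edgeR. Because Kallisto divides reads between transcripts of one gene, values of single transcripts carry an error of that division, which the counts do not show.

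Ptpn6-202 was the main transcript of its gene, with 1214 counts in LGK-974 replicate 1, 627 in replicate 2 and 1448 in replicate 3, and 149, 478 and 337 in DMSO replicates 1, 2 and 3. Its log2 fold change was 1.18 (SE 0.423, adjusted p = 0.853, edgeR). Ptpn6-201, which differs at the coding start shown above, had 162, 108 and 198 counts against 59.3, 41.2 and 60.2 (log2 fold change 0.91). The share of Ptpn6-202 had a mean of 79.9% (SD 0.783, n = 3) in the LGK-974 group, and of 74.5% (SD 19.0, n = 3) in the DMSO group, with a two-sided p of 0.7 in an exact permutation test.

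Ptpn6-204, with the 44 retained bases shown above, was named after its values were seen. It held 105, 34.8 and 145 counts under LGK-974 and 6.0, 5.9 and 4.1 under DMSO. All LGK-974 libraries were above all DMSO libraries. Its log2 fold change was 3.49 (SE 0.732, unadjusted p = 0.00216 and adjusted p = 0.694, edgeR), and DESeq2 gave it an adjusted p of 0.0141, its only call among these transcripts where it called 0.365% of all transcripts higher. It made up 6.43% ± 1.82 of the counts of Ptpn6 under LGK-974 and 1.41% ± 0.648 under DMSO (SD, n = 3 each).

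The main coding transcript of CD45 was Ptprc-203, the short form without the 3 exons shown. It had 1430.4, 677 and 1323 counts under LGK-974 and 147, 332 and 346 under DMSO. All LGK-974 libraries were higher, with a log2 fold change of 1.42 (SE 0.366, adjusted p = 0.808, edgeR). Ptprc-207, which holds these exons, had 0, 0 and 336 counts against 108, 42.8 and 0, with zeros in both groups. Retained-intron transcripts held 49.98% to 57.2% of the counts of Ptprc under LGK-974 and 54.6% to 72.1% under DMSO, where over all genes outside the mitochondrial genome such transcripts held 5.82% to 6.58%. One of them, Ptprc-210, was the only one of 18 transcripts with a mean share of at least 10% whose shares did not overlap, at 10.3%, 14.2% and 12.96% under LGK-974 and 17.1%, 24.5% and 15.5% under DMSO (p = 0.1 in a two-sided exact permutation test, 0.77 after Benjamini-Hochberg adjustment).

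Lyn-201 held 59.4% ± 5.66 of the counts of Lyn under LGK-974 and 55.9% ± 28.6 under DMSO (SD, n = 3 each). Lyn-202 held 34.2% ± 6.96 and 35.2% ± 23.5. In the DMSO libraries Lyn-201 ranged from 28.6% to 85.6%, so the mix of both forms varied more there. Vav1-201 held 67.4%, 91.7% and 90.5% of the counts of Vav1 under LGK-974 and 42.5%, 77.4% and 42.9% under DMSO. Vav1-203, which lacks a coding exon of 117 bases (chr17:57311784-57311900), held 25.4%, 0.985% and 0% against 36.2%, 18.4% and 50.1%. Both overlapped between groups, each with p = 0.2 in an exact permutation test.

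Counting coding transcripts alone, the groups of Lcp2 still overlapped, while those of Btk no longer did. How often groups lie apart on this scale over all genes was not computed. Btk then came to 2.97, 1.82 and 2.36 CPM under LGK-974 and 1.65, 0.839 and 1.03 under DMSO. Btk-204, a retained-intron transcript left out of these sums, held 28.5% to 56.3% and 49.4% to 63.2% of its counts. Btk-205, also left out, held 0% in the LGK-974 libraries and 7.27%, 16.2% and 1.19% in the DMSO libraries. No test was run on these sums.

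**Figure D4:**
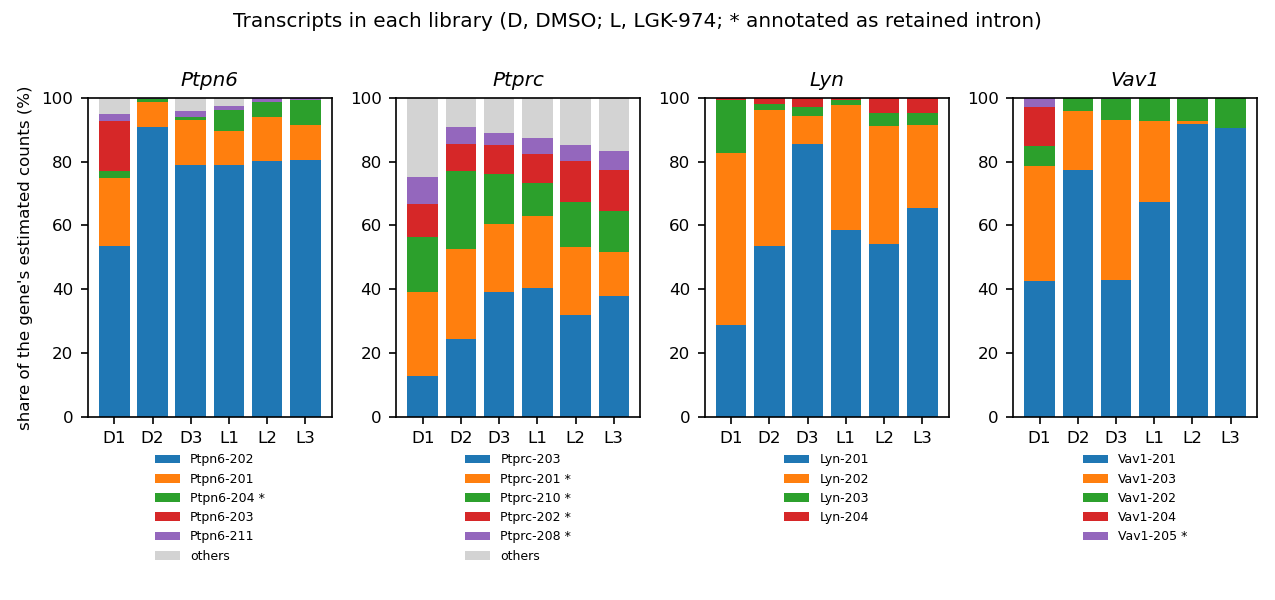
Share of the estimated counts of Ptpn6, Ptprc, Lyn and Vav1 held by each transcript, stacked to 100%, in DMSO replicates 1 to 3 (D1 to D3) and LGK-974 replicates 1 to 3 (L1 to L3). Asterisks mark transcripts annotated as retained intron. Ptpn6-202 is the largest part of Ptpn6 in all libraries, and the parts of Lyn vary more among the DMSO libraries (28.6% to 85.6% for Lyn-201).

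Promoter windows of RefSeq (GRCm38.p6, 250 bases before to 50 after the start) were searched on both strands for GAGGAA, the core bound by the myeloid and B cell factor PU.1 and related ETS factors, and for the longer GAGGAAGT, which contains it. GAGGAA was in 28.3% of 32851 windows and in 6 of the 10 windows of these genes, which belong to 8 genes (all but Lyn). GAGGAAGT was in 3.20% of all windows and in 2 of the 10, those of Vav1 and Inpp5d. The 60 bases before the start of each are shown, with GAGGAAGT in capitals, at chr17:57279040-57279099 and chr1:87620252-87620311 (both plus strand). A match is a description of the letters only.
Vav1 promoter: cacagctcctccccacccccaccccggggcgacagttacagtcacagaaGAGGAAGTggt
Inpp5d promoter: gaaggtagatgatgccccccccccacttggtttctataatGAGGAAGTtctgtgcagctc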

How the data were processed

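RNA of the infarct area from 6 mice was sequenced, and groups and replicate numbers were taken from the labels. The authors depleted ribosomal RNA with RiboZero and name a capture kit (RNA Access) as well, so levels can depend on probe coverage. They quantified transcripts with Kallisto on Ensembl transcripts of GRCm38. Its version and read trimming are not given in the sources used here. The authors deposited for each library, over 118489 transcripts, the estimated counts and the TPM values (scaled to effective transcript length and library sum).

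Here 98.6% of the transcripts were joined to 36047 genes with GENCODE M21, and the counts of its transcripts were added up for each gene, then rounded. Genes with at least 10 counts in 3 samples were tested with edgeR 4.0.16 (R 4.3.3; TMM, quasi-likelihood test, treatment only) and adjusted after Benjamini-Hochberg over all genes, with a threshold of 0.05. Transcripts were tested in the same way. Shares and ratios were compared with exact two-sided permutation tests. Levels are CPM from TMM-scaled library sizes, except the sums of olfactory, vomeronasal and taste receptor genes, which were scaled by library size alone. Depth ranged from 41579787 to 80398211 counts. The 9 genes held 98 counts or more in every library. How much of the spread between libraries came from counting and how much from the mice was not computed. The deposited TPM served only as an alternative. DESeq2 1.42.0, limma 3.58.1 (voom), other scalings, filters, a replicate block and leaving out each library were alternatives. Scripts were tested on simulated data. Summaries used SciPy 1.17.1, pandas 2.3.3 and NumPy 2.4.6 under Python 3.11.15, and plots matplotlib 3.10.9.

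The genes and lists were chosen with earlier results of these data known. The rule for named genes took the 9 genes, the 3 genes of each pathway list and the 2 pan-leukocyte markers with the smallest unadjusted p, transcripts with a mean share of at least 10%, and the 5 genes outside the 9 whose pattern was most like their mean. Some items that this rule covers are not reported here. Shared exons and near-identical sequence leave the split of reads uncertain.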

Additional observations from a re-analysis of the deposited data

How the results depend on the processing

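Over 17 alternatives the 9 genes gave 153 fold changes, of which 143 kept their direction and their side of the threshold, 9 passed it where the reported fit did not, and 1, that of Btk with counts scaled from TPM, turned to −0.32. The reported fit called 0 of the 9 genes. DESeq2 with defaults called 1 (Ptprc), and edgeR run on unfiltered genes 3 (Ptprc, adjusted p = 0.0479, Ptpn6, 0.00279, and Vav1, 0.0206), where it called 0.89% of all genes higher. Chosen after seeing the data, DESeq2 on the filtered genes called 3 (Ptprc, adjusted p = 0.0174, Plcg2, 0.0198, and Ptpn6, 0.0393) and DESeq2 without DMSO replicate 1 called 2 (Ptprc, 0.0116, and Plcg2, 0.0367), where they called 1.97% and 1.94% of all genes higher. DESeq2 with defaults called 7 of the pathway genes and DESeq2 without DMSO replicate 1 called 10 of them, where they called 0.853% and 1.94% of all genes higher. Of the transcripts of the 9 genes, DESeq2 with defaults called 1, where it called 0.365% of all transcripts higher. With library size as the only scaling the median of the 9 genes was 0.94, while the median of all genes moved from −0.13 to 0.08. Under it 3 of the 9 had groups apart, and the share of all genes apart was not computed. Among transcripts with a mean share of at least 10% (18 by counts), shares apart between groups numbered 1 by counts and 0 by TPM. They numbered 1 to 6 as each library was left out (5 without LGK-974 replicate 1, 2 without LGK-974 replicate 3, 3 without DMSO replicate 1, 5 without DMSO replicate 2 and 6 without DMSO replicate 3). With fewer libraries, shares lie apart more readily by chance, so these counts cannot be compared with that from all libraries. In edgeR, leaving out each library gave 0 calls among the 9 genes, their transcripts and the pathway genes. Over these fits the median of the 9 was 0.62 to 0.86, with 5 to 7 genes at an unadjusted p under 0.05 and 7 to 9 apart. At an unadjusted p under 0.05, 25 to 36 pathway genes were higher. The shares of all genes in these fits were not computed. Groups lie apart more readily by chance with a library left out, so 7 to 9 cannot be set beside the 10.7% found with all libraries. The log2 ratio of kinases to phosphatases differed by −0.42 to −0.23, and the median ratio to pan-leukocyte markers by −0.07 to 0.02. The causes of these shifts were not tested.

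Replicate numbers occur in both groups, but the mice are different animals, and the correlation of same-numbered deviations was 0.47, −0.05 and 0.39, so the numbers were not taken to pair them. With the replicate block, 0 of the 9 genes were called (adjusted p 0.124 to 0.683), 7 had an unadjusted p under 0.05, and the median of the 9 was 0.65. The share of all genes at that unadjusted p was not computed with the block.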

Other observations

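The genes whose log2 CPM ran most like the mean of the 9 genes over the 6 libraries were Tpx2 and Basp1 (Pearson r = 0.998 each), Pirb and Fam198b (0.997 each) and Tmsb4x (0.996). These r values share the libraries and their 2 treatment groups and are given as a description. Tpx2, which helps to build the mitotic spindle, was at 23.0, 17.9 and 33.5 CPM under LGK-974 and at 9.98, 14.1 and 10.5 under DMSO. Like all 9 genes it was highest in LGK-974 replicate 3, and its log2 fold change was 1.11 (SE 0.260, adjusted p = 0.368, edgeR). Basp1, a membrane protein, had a log2 fold change of 1.22 and Tmsb4x, which binds actin monomers, of 0.84. Of the 9 genes, Inpp5d was closest to their common pattern (r = 0.981) and Btk farthest (r = 0.744), each gene being part of that mean.

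Set against the summed monocyte and macrophage markers instead of the pan-leukocyte markers, 8 of the 9 genes had a lower mean log2 ratio under LGK-974, all but Ptpn6 (0.15). Syk (a difference of −0.55) and Inpp5d (−0.31) had their groups apart, each with p = 0.1, the smallest that a two-sided exact permutation test of 3 against 3 can give, and 0.45 after Benjamini-Hochberg adjustment over the 9 genes. Neither was apart relative to the pan-leukocyte markers.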
